A study of Arabidopsis thaliana with 6 samples.

Results

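The genes described here are 6 glycosyl hydrolase genes of Arabidopsis thaliana whose signal in mature pollen lay above wild type in both of 2 insertion lines. They are AT5G20390 and AT5G20560 of family GH17, AT4G33860 of family GH10, GH9A4 and GH9B11 of family GH9, and BGAL16 of family GH35. They were picked by name with their changes against wild type already known, from the 13356 genes that had a probe set of their own in the annotation used, and each has 1 probe set. Their levels in the lines against wild type are therefore a description, and no test is given for them. For the 6, only the lines against each other were tested. Other genes of the same families, markers and chromosomal neighbours were also tested against wild type.

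The series measured total RNA from mature pollen on 6 Affymetrix ATH1 arrays, 2 per group. The groups were the SALK_018864 insertion line (the TF2 line), the SAIL_1168_C11 insertion line (the TF1 line) and wild-type Col-0, all with Col-0 as genetic background and all grown on compost at 21 °C and 75% humidity. The series title names gametophytic transcription factors. The labels do not name the disrupted genes, and each line is a single insertion allele. From knowledge beyond the labels, the SALK_018864 insertion lies in BZIP34, a bZIP factor of pollen. Nothing in the labels says that replicates came from separate plants, so the p-values cover no more than array-to-array spread, which could be technical.

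Glycosyl hydrolases cut the bonds between sugars, and many of those secreted by plant cells act on the cell wall. GH17 enzymes are endo-glucanases that cut callose, the glucan that lines the pollen tube wall and is laid down as plugs behind the tip. GH9 enzymes are endo-glucanases of the cellulase type, GH10 enzymes are xylanases, and GH35 enzymes are galactosidases that release galactose from wall polymers and glycoproteins. A growing pollen tube builds and loosens its wall at the tip, and mature pollen stores transcripts for that growth.

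Most measured markers of the labelled tissue read far above the array medians of 33.6 to 43.0 on all arrays. The exceptions were TET12, at 41.6 on average in wild type, and TET11, at 91.3. Of 28 pollen markers fixed for the check, 14 had a probe set of their own, among them the receptor kinase genes ANX1 and ANX2 and the sperm histone gene MGH3. Their summed signal was 25879 to 29781 on the TF2 arrays, 23730 to 24424 on the TF1 arrays and 14041 to 14395 on the wild-type arrays. In limma 11 of the 14 rose in TF2 and 10 in TF1, and AtVEX1 fell in both. The 6 measured leaf genes ran the other way: their summed signal was 317 and 406 in TF2, 304 and 305 in TF1 and 4186 and 3936 in wild type, and all 6 fell in both lines. Of the 11373 probe sets kept for testing, 14.8% were called higher and 16% lower in TF2, and 11.9% and 9.64% in TF1. Of those averaging 1000 or more over the arrays, line arrays included, 86.2% were called higher in TF2 and 84.5% in TF1. Several pollen markers are that bright, ANX1 and ANX2 among them. The leaf gene LHCB4.2 averaged 3.84 in TF2 and 11.2 in TF1. Of 2 tapetum genes, SWEET8 fell in both lines and AMS did not pass the threshold. The actin 3′ control probe set read 84.6 to 93.9 in TF2, 157 to 190.4 in TF1 and 624 to 636 in wild type. The part of these shifts in the results below was not tested. In such bulk RNA, fewer cells of a type and less RNA per cell cannot be told apart.

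AT5G20390, a GH17 gene, had one of the widest gaps to wild type. Its signal was 15311 and 13747 in TF2, 11459 and 12407 in TF1 and 2332 and 2325 in wild type. The groups do not overlap, and the pair of wild-type arrays differ by far less than either line does from them. The mean was 14529 ± 1105 in TF2, 11933 ± 670.2 in TF1 and 2329 ± 4.60 in wild type (SD, n = 2 each), 6.24 times the wild-type mean in TF2 and 5.12 times in TF1. Changes below are differences of log2(signal + 10.3), where 10.3 is the 25th percentile of all values, a scale that understates the change of dim genes. On it AT5G20390 lay 2.63 above wild type in TF2 and 2.35 in TF1. Of the 6280 kept probe sets with 1 gene, 8 had a larger positive change in TF2 and 4 in TF1.

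AT5G20560 belongs to the same family and lies on the same chromosome, with 16 protein-coding genes between the pair. It was a dim probe set in wild type: it read 238 and 213 in TF2, 104 and 87.9 in TF1 and 50.0 and 12.9 in wild type. All 3 groups are apart, in the order TF2, TF1, wild type, but the wild-type arrays stand far apart and the lower one is close to the pseudocount introduced above. The mean was 226 ± 17.5 in TF2, 96.1 ± 11.6 in TF1 and 31.4 ± 26.3 in wild type. The log2 change was 2.66 in TF2 and 1.50 in TF1. Without wild type replicate 1 these values were 3.35 and 2.19, and without wild type replicate 2 they were 1.97 and 0.81.

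AT4G33860, the GH10 gene, moved much as AT5G20390 did. Its signal was 4213 and 4717 in TF2, 3939.7 and 3183 in TF1 and 739.6 and 618 in wild type. Both lines are well clear of wild type, while the lower TF2 array is close to the higher TF1 array. The mean was 4465 ± 356 in TF2, 3561 ± 535 in TF1 and 679 ± 85.9 in wild type, and the log2 change was 2.70 in TF2 and 2.37 in TF1. The name of its probe set has the suffix s_at, which Affymetrix gives to probe sets whose probes match more than 1 transcript. The annotation lists only AT4G33860 for it, yet the signal may hold that of a near-identical gene.

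The GH9 pair were among the bright probe sets of wild-type pollen already. GH9A4, of the class of GH9 enzymes that includes KORRIGAN, read 26304 and 26792 in TF2, 25141 and 27747 in TF1 and 9865 and 9914 in wild type. The TF1 arrays enclose the TF2 arrays, and all 4 lie far above wild type. The mean was 26548 ± 345 in TF2, 26444 ± 1842 in TF1 and 9889.5 ± 34.2 in wild type, with a log2 change of 1.42 in TF2 and 1.42 in TF1. The highest signal of any probe set was 52390 and 61119 on the TF2 arrays and 35822 and 36781 on the wild-type arrays. GH9A4 was thus bright but well below the highest signals.

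GH9B11 had a smaller change. It read 10528 and 10941 in TF2, 9353 and 9315 in TF1 and 4991 and 4256 in wild type. The groups do not overlap, and the TF2 arrays lie above the TF1 arrays by a small margin. The mean was 10735 ± 292 in TF2, 9334 ± 26.8 in TF1 and 4623 ± 519.9 in wild type, with a log2 change of 1.22 in TF2 and 1.02 in TF1.

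BGAL16, the GH35 gene, had the smallest log2 change in TF2 of the 6. It read 322 and 358 in TF2, 458 and 400.2 in TF1 and 278 and 179 in wild type. No array of either line falls below a wild-type array, but the lower TF2 array is only slightly above the higher wild-type array. The mean was 340.2 ± 25.2 in TF2, 429 ± 40.7 in TF1 and 228 ± 70.3 in wild type. The log2 change was 0.58 in TF2 and 0.91 in TF1, the reverse of the order in which the lines stand for the other genes with separate lines. Without wild type replicate 1 these values were 0.89 and 1.21, and without wild type replicate 2 they were 0.28 and 0.60.

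**Figure D1:**
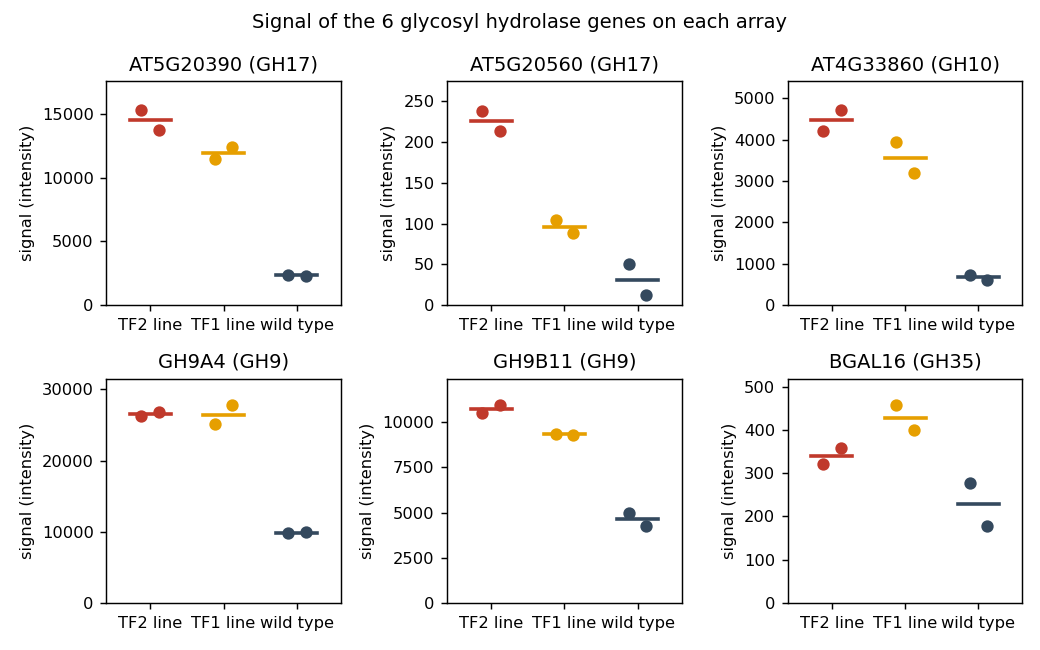
Signal (array intensity, linear scale from 0) of each of the 6 genes on every array, 1 panel per gene. Points are arrays, bars are means of 2 arrays, and every array of both lines lies above both wild-type arrays in all panels, with the smallest gap for BGAL16 in TF2.

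In all, both arrays of the line lay above both wild-type arrays for 6 of 6 genes in TF2, as they did for 35.3% of the 11373 kept probe sets, and for 6 of 6 in TF1, against 30.4%. The choice of the genes fixed these counts. The median log2 change of the 6 was 2.03 in TF2 and 1.46 in TF1, against 0.05 and −0.02 over all kept probe sets. Of the 6280 kept probe sets with 1 gene, 1872 had a larger positive change than BGAL16 in TF2 and 586 in TF1. For GH9B11 the number was 443 in TF2 and 393 in TF1, and for GH9A4 232 and 85. For AT4G33860 it was 4 and 3. For AT5G20560 it was 6 and 53, a place that rests on dim wild-type arrays that stand far apart. The 2 comparisons share their wild-type arrays.

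Bright probe sets as a whole were higher in both lines, and 4 of the genes are bright. Of 788 kept probe sets that averaged 1000 or more over the 6 arrays, a limit set after the values were seen, 86.2% were called higher in TF2 and 84.5% in TF1. That average includes the line arrays, so a probe set raised in the lines reached the limit more easily, which pushes these shares up. AT4G33860, for example, averaged 679 in wild type. Their median log2 change was 0.88 in TF2 and 0.79 in TF1. GH9B11 lay a little above these medians, GH9A4 further above, and AT5G20390 and AT4G33860 far above.

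**Figure D2:**
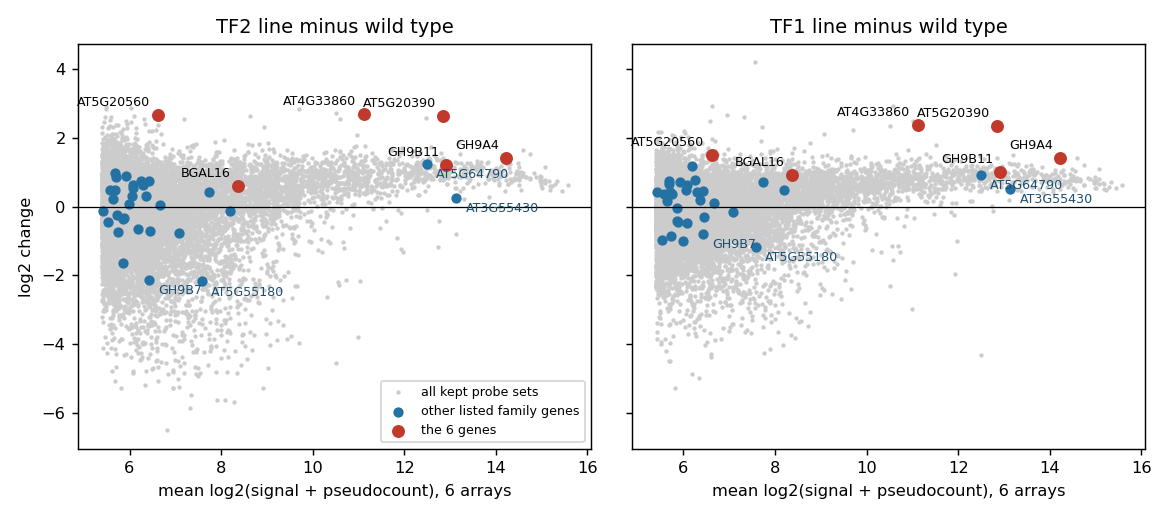
Log2 change against wild type (vertical axis) by mean log2(signal + 10.3) over the 6 arrays (horizontal axis) in the TF2 line, left, and the TF1 line, right. Grey points are the 11373 kept probe sets, blue points the 31 other kept genes of the 4 families and red points the 6 genes. The grey cloud lies above 0 at its bright end, and AT5G20390 and AT4G33860 stand at its upper edge in both panels.

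The place of a probe set within its array does not depend on the scale. AT5G20390 had 109 and 116 probe sets brighter than itself in TF2, 127 and 119 in TF1 and 344 and 332 in wild type. For AT4G33860 the number was 324 and 298 in TF2, 325 and 378 in TF1 and 949 and 1076 in wild type. Both genes thus moved up the array in both lines.

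GH9A4 had 45 and 48 brighter probe sets in TF2, 35 and 40 in TF1 and 87 and 75 in wild type. For GH9B11 the number was 159 and 141 in TF2, 149 and 158 in TF1 and 170 and 179 in wild type, a much smaller shift in place than that of AT5G20390, with the wild-type arrays still below both lines. For BGAL16 it was 1735 and 1622 in TF2, 1490 and 1552 in TF1 and 2295 and 3264 in wild type. For AT5G20560 it was 2125 and 2319 in TF2, 4223 and 5295 in TF1 and 9332 and 17363 in wild type, where the arrays disagree widely.

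Quantile normalization, which gives every array the same distribution, acted unequally on the genes. It moved the median change of all kept probe sets to 0.14 in TF2 and 0.11 in TF1, and that of the 788 bright ones to 0.16 in both. The change of GH9B11 was then 0.22 in TF2 and 0.18 in TF1, and that of GH9A4 was 0.51 in TF2 and 0.63 in TF1. AT5G20390 kept 1.81 in TF2 and 1.67 in TF1, and AT4G33860 kept 2.36 in TF2 and 2.12 in TF1. The dimmer AT5G20560 and BGAL16 were at 2.92 and 0.89 in TF2 and at 1.69 and 1.07 in TF1. Centring each array on its median moved the median of all kept probe sets to 0.23 in TF2 and 0.21 in TF1 and raised all 12 changes.

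**Figure D3:**
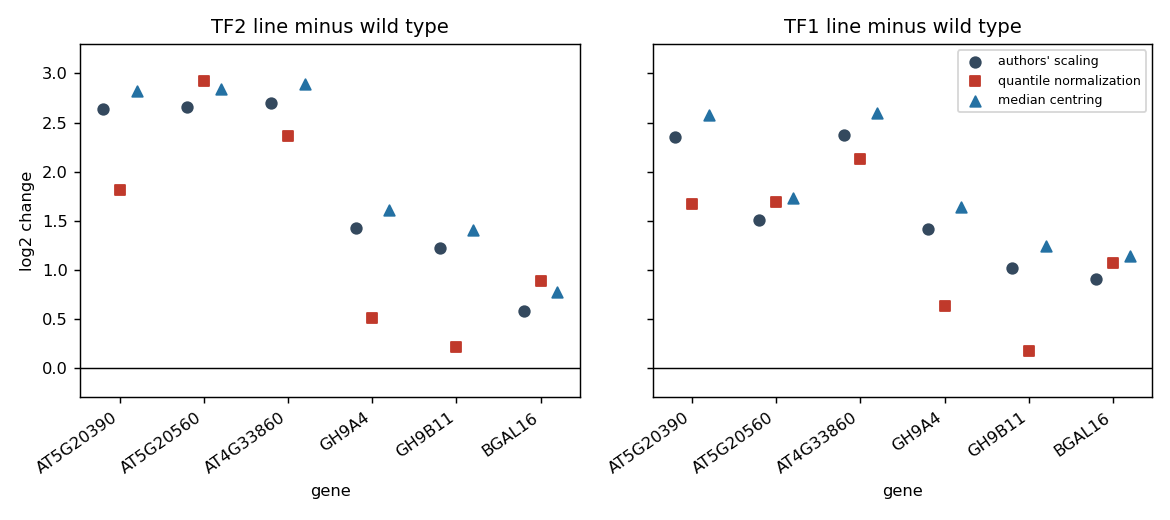
Log2 change against wild type of the 6 genes under the authors' scaling (circles), quantile normalization (squares) and median centring (triangles), for the TF2 line, left, and the TF1 line, right. All changes stay above 0, and the squares of GH9B11 and GH9A4 lie far below their circles.

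The lines were next set against each other. This contrast is the difference between the TF2 change and the TF1 change against wild type, and the genes were chosen with both changes known. It is therefore not independent of the choice, and the limma p-values do not allow for that. Picking genes raised in both lines could leave out genes in which the lines differ strongly, so the shares of all kept probe sets are given for description only. None of the 6 was called by limma after Benjamini-Hochberg adjustment over all kept probe sets, of which 4.65% were called. An unadjusted p under 0.05 was reached by 3 of the 6 and by 18.5% of all kept probe sets. Leaving out single arrays, changing the scale, the pseudocount, the filter or the trend, or adding the replicate number as a block gave 0 calls as well. A fit of only the 4 arrays of the lines called AT5G20560.

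AT5G20560 had the widest difference of the 6, TF2 being higher by 1.15 log2 units (SE 0.44, 95% interval 0.20 to 2.11, limma adjusted p = 0.178). In the fit of only the lines its adjusted p was 0.0493. Over all alternatives it ran from 0.0493 to 0.418. AT4G33860 was higher in TF2 by 0.33 (interval 0.02 to 0.65, limma adjusted p = 0.246) and AT5G20390 by 0.28 (interval 0.02 to 0.55, limma adjusted p = 0.233). For both genes the interval leaves out 0 narrowly, covers 1 gene at a time, and stands beside an adjusted p that misses the threshold. Without TF1 line replicate 1 the difference of AT4G33860 was 0.48, and without TF1 line replicate 2 it was 0.18. Quantile normalization took that of AT5G20390 to 0.14.

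GH9B11 differed by 0.20 (interval −0.07 to 0.47, limma adjusted p = 0.426). For GH9A4 the difference was 0.01 (interval −0.27 to 0.28, limma adjusted p = 0.985), with the TF2 and TF1 arrays interleaved. BGAL16 was the only one of the 6 with a lower mean in TF2, by −0.32 (interval −0.80 to 0.15, limma adjusted p = 0.476). Both TF2 arrays lay above both TF1 arrays for 4 of the 6 genes, as for 23% of all kept probe sets, and below them for BGAL16.

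**Figure D4:**
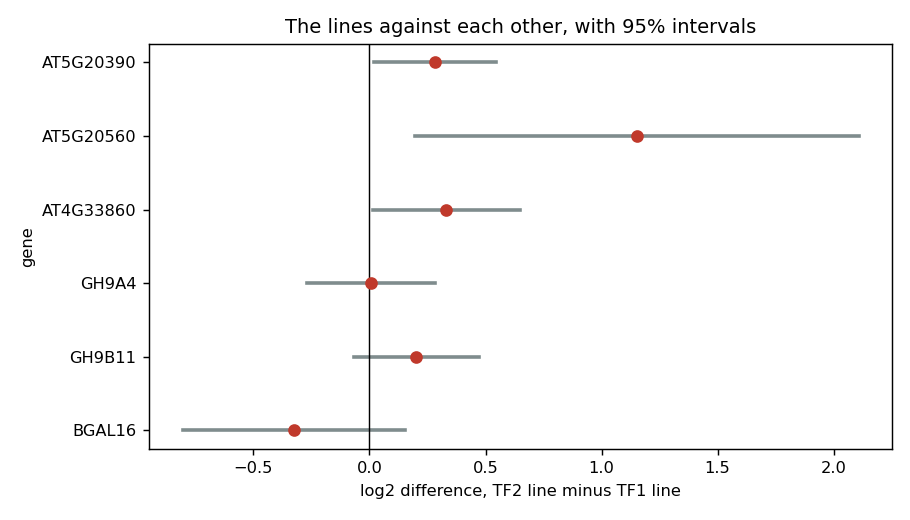
Log2 difference between the TF2 line and the TF1 line (points, TF2 minus TF1) with 95% intervals from limma (bars) for the 6 genes. The intervals of GH9A4, GH9B11 and BGAL16 include 0, and that of AT5G20560 is the widest.

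The same 4 families hold 97 other listed genes, of which 55 had a probe set of their own and 31 passed the filter on dim signal. For GH35 the annotation used lists a probe set of its own for BGAL16 alone. In TF2 1 of the 31 rose and 3 fell, so that 12.9% were called, against 30.8% of all kept probe sets (14.8% higher and 16% lower). In TF1 2 rose and 1 fell, so that 9.68% were called, against 21.6% (11.9% higher and 9.64% lower). Quantile normalization gave 0 higher and 4 lower in TF2 and 1 of each in TF1, and median centring 2 higher and 3 lower in TF2 and 5 higher and 0 lower in TF1. The median log2 change of the 31 was 0.23 in TF2 and 0.38 in TF1. Most of the 31 were dim. Apart from AT5G64790 and AT3G55430, their highest group mean was 407, that of AT5G55180 in wild type. The shares called were not compared with those of probe sets of like signal. Whether these families changed less than other genes was therefore not tested.

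AT5G64790, also a bright GH17 probe set, was the one that rose in both lines under the authors' scaling. It read 8595 and 8041 in TF2, 6588 and 6597 in TF1 and 3743 and 3246 in wild type, a separate level in each group. It rose by 1.25 in TF2 (SE 0.12, limma adjusted p = 1.16e-05) and by 0.92 in TF1 (SE 0.12, limma adjusted p = 0.000245). After quantile normalization the changes were 0.28 (limma adjusted p = 0.0624) and 0.09 (limma adjusted p = 0.615), and without the intensity trend the TF1 call was lost (limma adjusted p = 0.0784).

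AT3G55430, with the highest wild-type signal of the GH17 probe sets, averaged 9041 ± 68.9 in TF2, 10762 ± 238 in TF1 and 7550.5 ± 255 in wild type. It rose in TF1 (0.51, SE 0.12, limma adjusted p = 0.00732) and did not pass the threshold in TF2 (0.26, limma adjusted p = 0.116). After quantile normalization its TF1 change turned to −0.35 (limma adjusted p = 0.0406). Without wild type replicate 2 the TF1 call was lost (limma adjusted p = 0.0795), as it was without the intensity trend (limma adjusted p = 0.190).

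Other GH17 and GH9 genes went the opposite way. AT5G55180 of GH17 read 139 and 46.8 in TF2, 171 and 177 in TF1 and 373 and 441 in wild type. It fell by 2.17 in TF2 (SE 0.36, limma adjusted p = 0.000647) and fell by 1.17 in TF1 (SE 0.36, limma adjusted p = 0.0375). The TF1 call was lost without any single array of wild type or TF1 (limma adjusted p = 0.136 to 0.240) and in 5 other alternatives (0.0615 to 0.180). The leaf genes fell on the same arrays, and their part in this was not tested.

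GH9B7 averaged 33.5 ± 29.2 in TF2, 87.6 ± 0.0596 in TF1 and 159 ± 6.40 in wild type. It fell by 2.14 in TF2 (SE 0.47, limma adjusted p = 0.00414), where the change was −2.87 without TF2 line replicate 1 and −1.40 without TF2 line replicate 2. Its TF1 change of −0.79 did not pass the threshold (limma adjusted p = 0.283). AT2G05790 of GH17 fell by 1.65 in TF2 (SE 0.51, limma adjusted p = 0.0268). Leaving out wild type replicate 1 (limma adjusted p = 0.163), wild type replicate 2 (0.158), TF2 line replicate 2 (0.0572) or the filter (0.0537) ended that call. In TF1 it changed by −0.05.

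Some of the genes next to the 6 on the chromosome belong to the same families. GH9B11 stands in a row with GH9B9, GH9B10 and GH9B12, of which GH9B12 had a probe set of its own. GH9B12 averaged 99.4 ± 11.1 in TF2, 79.0 ± 4.15 in TF1 and 56.4 ± 21.5 in wild type, with no call (limma adjusted p = 0.171 in TF2 and 0.469 in TF1). AT4G33860 stands near the GH10 genes AT4G33810 to AT4G33840, of which AT4G33810 was measured, at 80.0 ± 14.1 in TF2, 83.2 ± 21.4 in TF1 and 44.9 ± 17.5 in wild type. It was not called either (limma adjusted p = 0.226 and 0.245).

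Within 5 protein-coding genes on either side of the 6, 12 neighbours were kept. In each line 1 of them was called higher and 1 lower, where 14.8% of all kept probe sets were called higher and 16% lower in TF2, and 11.9% and 9.64% in TF1, and none of the 6 is such a neighbour of another. The neighbour that rose was AT5G20370, by 1.08 in TF2 and 1.04 in TF1, and the other was AT5G20500, which fell by 0.96 in TF2 and fell by 0.78 in TF1. The window was chosen after the values were seen. The 12 were dim, with a highest group mean of 456 for AT5G20500 in wild type. They were not compared with probe sets of like signal.

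Among the 6, likeness of pattern was measured as the root-mean-square difference of log2 profiles over the 6 arrays, each centred on its own mean. AT5G20390 and AT4G33860 differed by 0.17, with AT5G20390 as the second nearest of 6279 probe sets to AT4G33860 and AT4G33860 as the third nearest to AT5G20390. GH9A4 and GH9B11 differed by 0.18, with GH9B11 as the 53rd nearest to GH9A4 and GH9A4 as the 290th nearest to GH9B11. BGAL16 lay 0.30 from GH9B11, its nearest of the 6 and the 631st nearest probe set, and 0.90 from AT5G20560, its farthest. These profiles rest on 6 arrays in 3 groups, and many probe sets share their shape.

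The mean profile of the 6, centred in the same way, joins unlike patterns and stood at −0.95 and −1.36 on the wild-type arrays. AT5G20560, with wild-type signals of 50.0 and 12.9, is part of that mean. Outside the 6, AT5G58530 came nearest to the mean profile of 6274 candidates, at 0.11 log2 units. AT5G56160 followed at 0.13, AT2G40420 and AT1G10660 at 0.15 each, and CSLC12, which encodes a glucan synthase of the cellulose synthase-like group, at 0.16. CSLC12 averaged 5396 ± 210 in TF2, 4285 ± 641 in TF1 and 1715 ± 305 in wild type. Its change of 1.66 in TF2 and 1.32 in TF1 lies between those of GH9A4 and AT5G20390 in TF2 and below GH9A4 in TF1.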

How the data were processed

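The authors deposited 1 signal intensity per probe set and array on a linear scale. The submitters' processing notes name MAS5 and GCOS, with versions and settings not given in the sources used here. Each array's mean after trimming 2% at each end was 100.0, and this scaling was kept. No detection calls came with the signals, and precision is limited by the number of arrays. Of 22810 probe sets, 64 controls were left out. The platform annotation gave 1 gene for 13513, several for 503 and none listed for 8730, and 13436 matched RefSeq (TAIR10.1, names and gene order only).

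Signals were tested as log2(signal + 10.3). Probe sets at or above the median of mean log2 values (11373) were kept. The 6 arrays were fitted together in limma 3.58.1 (R 4.3.3) with an intensity trend, two-sided, Benjamini-Hochberg adjustment over all kept probe sets and 0.05 as threshold. The fit was tested on simulated data. Alternatives were quantile normalization, median centring, a smaller pseudocount (2.58), no filter, no trend, 2-group fits, a replicate block and leaving out each array.

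The 6 genes and all lists were chosen with earlier results of these data known. Genes were named by rule: the 6, each family gene called in a comparison, the family gene with the highest wild-type signal, and the 5 nearest profiles. Tandem and chromosomal neighbours were added after their values were seen.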

Additional observations from a re-analysis of the deposited data

Results flagged for a closer look

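AT3G04010, a GH17 gene outside the 6, was the 1 listed gene of the 4 families whose difference between the lines passed the threshold of the test of that difference. It read 47.6 and 18.4 in TF2, 156 and 116 in TF1 and 53.6 and 54.0 in wild type. The TF2 line was lower than the TF1 line by −1.83 log2 units (SE 0.46, limma adjusted p = 0.0450). Neither line passed the threshold against wild type (−0.65, limma adjusted p = 0.324 in TF2, and 1.18, limma adjusted p = 0.0956 in TF1). The call between the lines was lost in 9 of 13 alternatives, with limma adjusted p from 0.0177 to 0.216 over all of them. Those were the smaller pseudocount, no filter, no trend, the fit of only the lines, and leaving out TF2 line replicate 2, either TF1 array or either wild-type array.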

How the results depend on the processing

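All 12 changes of the 6 genes against wild type stayed above 0 in all 13 alternatives. For most alternatives this was fixed in advance, because every line array of these genes lay above both wild-type arrays. Only quantile normalization and median centring could have turned a sign, and quantile normalization took GH9B11 to 0.22 in TF2 and 0.18 in TF1. The number of other family genes called in TF2 was 3 to 5 in all alternatives, which tested 30 to 55 of them. In TF1 it was 3, and it became 5 with median centring, 5 in the fit of only the groups compared and 0 without the intensity trend, and it ran from 1 to 5 when single arrays were left out, with 1 without wild type replicate 2 and 5 without TF2 line replicate 2. The cause was not tested. Without the trend 456 of all kept probe sets were called in TF1, against 2453 with it. Among the 6, the number called between the lines was 0, and 1 in the fit of only the groups compared. The TF1 change of AT3G55430 reversed to −0.35 after quantile normalization. Same-numbered arrays of different groups did not deviate together (r = 0.00 to 0.02 over probe sets), so the numbers were not taken as pairs. With the replicate block 4 family genes were called in TF2, 3 in TF1 and 0 of the 6 between the lines. The number of arrays limits the precision.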
